A study of Rattus with 9 samples.

Results

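Rat bile ducts were compared on day 1 after liver transplantation (LT) with and without a procedure that raises the arterial flow to the graft. The comparison took 6 of the 20 single-cell RNA sequencing (scRNA-seq) libraries of the series that were read here, 3 with raised flow (labeled treat1D) and 3 with transplantation alone (ctrl1D), hereafter flow libraries 1 to 3 and LT libraries 1 to 3. A barcode was taken as a cell if it held over 400 but under 6000 genes, less than 25% mitochondrial and less than 3% hemoglobin unique molecular identifiers (UMIs). The cells numbered 38087 of the 150284 cells of all libraries, with 6880, 3174 and 3725 in the LT libraries and 7350, 7130 and 9828 in the flow libraries. UMIs were added up per library, over all cells and for each cell class, and libraries were the replicates.

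In both groups the liver graft had an ischemic injury. Raised flow was obtained by ligation of the splenic and gastroduodenal arteries, which leaves the hepatic artery more of the celiac inflow, and the LT group had no ligation. A study that used the transplant data credits them to prior work of its authors. Its own rats were Sprague-Dawley rats of both sexes aged 6 to 8 weeks, and its supplement gives 30 min of warm ischemia for transplanted rats. Whether this holds for the libraries compared here is not stated there. That study does not describe the ligated rats, so details of that surgery were not given in the sources used here. Sham-operated rats (3 libraries) were neither transplanted nor ligated, and their values are given beside the others without a test. Each of the 2 groups compared was 1 sample with 3 libraries, while the sham libraries were 3 samples, and whether the libraries of a group came from separate rats is not stated. All p-values therefore measure the spread between libraries, which may be technical.

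Bile ducts, unlike hepatocytes, are fed by the hepatic artery alone, through a peribiliary plexus of small vessels. When oxygen falls, prolyl hydroxylases no longer mark hypoxia-inducible factors (HIF) for degradation, and these factors switch on glycolytic enzymes, glucose and lactate carriers, carbonic anhydrase IX and vascular growth factors. The duct wall is lined by biliary epithelial cells (BEC), which are joined by tight junctions, express simple keratins and coat the lumen with trefoil peptides and mucus. Below them lie collagen-producing fibroblasts, endothelial cells (EC) and vascular smooth muscle cells (VSMC).

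LT library 1 stood apart from LT libraries 2 and 3. Across genes, its log2 expression correlated at r = 0.944 and 0.956 with those libraries and at 0.976 with flow library 1, while LT libraries 2 and 3 correlated at 0.977 and the flow libraries at 0.973 to 0.983. Counts of called genes are therefore also given without it, as are the lists over all cells whose median turned its sign without it. This library was singled out because of these values, so counts without it are not separate support for a difference. Without LT library 2 or 3 or flow library 2 or 3, 0 genes were called over all cells and 0 in BEC. Without flow library 1, 669 and 2 were called. The median cell held 3154 to 3826 UMIs in LT and 4880.5 to 7233 UMIs with raised flow. Pairs of libraries shared at most 0.315% of the barcodes of the smaller one. The markers of the labeled tissue were found, with the 10 BEC markers detected in all 6 libraries and their summed level at 8871 to 16520 CPM (UMIs per 1000000) in LT and at 3499 to 4248 CPM with raised flow. Markers of hepatocytes summed to 59.1 to 84.1 CPM in LT and to 33.6 to 47.4 CPM with raised flow, and those of erythroid cells to 83.3 to 137 CPM and 80.6 to 129 CPM.

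Fibroblast-like cells made up a larger share of the flow libraries, and BEC-like cells a smaller one. The clustering left out the genes of the lists described below unless they are also markers. It gave 38 clusters, and each cluster was named from its markers, so that every class name here means "like" that type. Fibroblasts made up 1.56%, 0.756% and 1.61% of cells in LT libraries 1, 2 and 3 and 12.2%, 29.3% and 29.9% with raised flow (23.8% ± 10.0 against 1.31% ± 0.478, SD, n = 3, 18.2-fold). BEC made up 15.8%, 14.6% and 29.2% in LT and 10.8%, 5.89% and 7.06% with raised flow (7.90% ± 2.54 against 19.8% ± 8.11, 0.398-fold). The groups did not overlap in either class, and the two-sided exact permutation test gave p = 0.1, the smallest value that 3 against 3 libraries allow. The fibroblast share leaves out cluster 18, an unnamed stromal cluster described below. It held 4.03%, 1.23% and 1.85% of the LT libraries and 3.82%, 2.27% and 1.54% of the flow libraries. Its 8 fibroblast markers summed to 6114 to 9615 CPM in LT and to 6686 to 12030 CPM with raised flow. Counted with the fibroblasts, these cells would make the fold difference smaller.

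Among the smaller classes, lymphatic EC, T cells, B cells and mast cells also lay higher in every flow library than in any LT library (p = 0.1 each, exact permutation test). Lymphatic EC were at 0.422%, 0.126% and 0.671% in LT and at 1.44%, 1.15% and 1.09% with raised flow. T cells were at 2.31%, 0.725% and 2.79% against 4.12%, 3.10% and 3.35%, but overlapped among cells with at least 1000 genes (p = 0.2, exact permutation test). B cells were at 1.00%, 0.410% and 0.725% against 2.65%, 1.30% and 2.69%. The other named classes overlapped between the groups. Neutrophils, the first leukocytes to enter injured tissue, ranged from 8.59% to 41.6% in LT and from 6.92% to 16.0% with raised flow (p = 0.3, exact permutation test). An unnamed epithelial cluster (cluster 2, led by Gkn3, Agr2, Aqp5 and Spdef) held 2.38%, 19.6% and 19.7% of the LT libraries and 2.61%, 3.03% and 3.04% of the flow libraries (p = 0.4, exact permutation test), so LT library 1 was again with the flow group. Macrophages ranged from 1.61% to 16.2% in LT and from 5.20% to 14.2% with raised flow (p = 0.6, exact permutation test). Shares are relative, and cell loss during digestion was not measured.

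**Figure D1:**
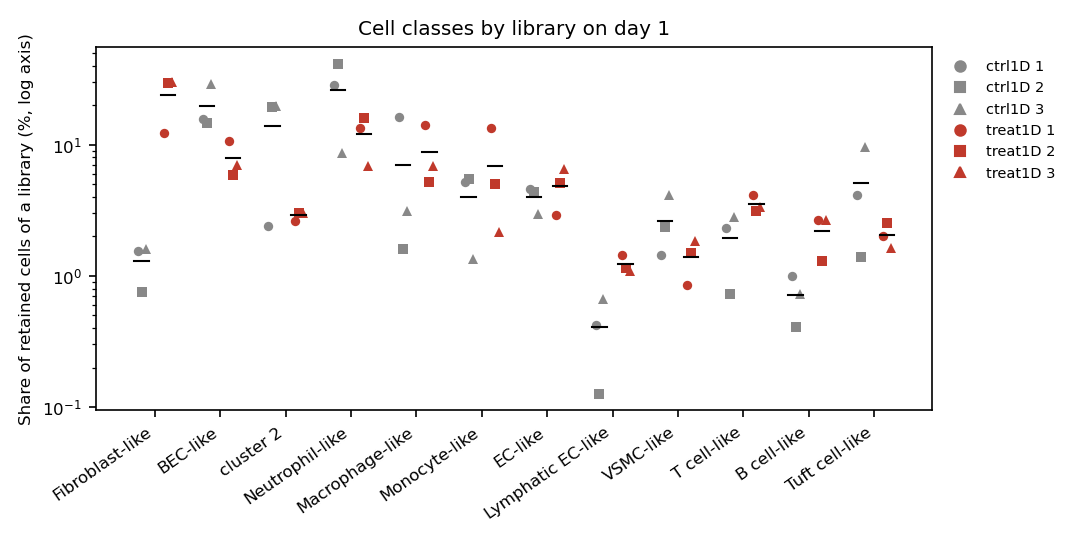
Share of the retained cells of each library in 12 classes (%, log axis). Gray points are LT libraries, red points flow libraries, the symbol gives the library number and the bar the group mean. Fibroblast-like cells lie at 0.756% to 1.61% in LT and at 12.2% to 29.9% with raised flow, and cluster 2 is high in LT libraries 2 and 3 only.

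The classes were not made up of the same clusters in both groups. Among BEC, cluster 15, led by Muc13, Duoxa2 and Lypd8, held 41.3% of the LT cells and 2.68% of the flow cells, and 65.8% of it came from LT library 3. Clusters 6 and 9 held 34.6% and 24.1% of LT BEC and 47.3% and 50% of flow BEC. Fibroblasts of the LT group lay mostly in cluster 5 (76.4%) and those of the flow group in cluster 0 (45.8%, of which 97.6% came from flow library 3), cluster 5 (30.4%) and cluster 13 (20.6%, of which 88.9% came from flow library 2). Neutrophils of LT lay in clusters 7 and 11 (40.9% and 36.4%) and those of the flow group mostly in clusters 3 and 10 (54.9% and 36.5%). Of cluster 7, 88.7% came from LT library 1, and of cluster 11, 89.5% from LT library 2, so these are mostly clusters of single libraries.

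Over all cells of a library, 1123 of 14532 tested genes differed between the groups (7.73%, edgeR quasi-likelihood test, Benjamini-Hochberg adjusted p below 0.05), with 505 genes (3.48%) higher and 618 (4.25%) lower with raised flow. Fibroblast matrix genes were among those with the largest increase, and HIF targets and epithelial genes among those with the largest decrease. With libraries scaled by their size alone, the split was 598 higher and 381 lower, and the median of all genes went from -0.05 to 0.12 on the log2 scale. Deviations from the group means were correlated between same-numbered libraries (r = 0.419, 0.171 and 0.271), but LT library 3 and flow library 2 reached 0.157. The numbers come from file names only, and whether they pair the libraries is not stated. With the number as a block no gene was called (4403 at an unadjusted p below 0.05, smallest adjusted p = 0.056, 2 residual degrees of freedom in place of 4). Without LT library 1, 2606 genes were called, without flow library 1 669, and without LT library 2, LT library 3, flow library 2 or flow library 3 none. All 1123 genes had the same direction and an unadjusted p below 0.05 under the block and in each of these 6 fits. These fits reuse the libraries by which the genes were selected, so this is not independent support. DESeq2 called 2619 genes, all 1123 among them. In these sums, more cells of a type and more RNA per cell cannot be told apart.

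Genes of the fibroblast matrix rose. Col3a1, which encodes the chain of type III collagen, was at 381, 136 and 297 CPM in LT libraries 1, 2 and 3 and at 2939, 7428 and 5769 CPM with raised flow (log2 fold change 4.31 ± 0.53, SE, adjusted p = 0.0273). Col1a1, a chain of type I collagen, was at 289, 92.4 and 163 CPM against 1791, 4253 and 2619 CPM (3.99 ± 0.54, adjusted p = 0.0273). The flow libraries lay above every LT library in both, and flow library 1 was the lowest of the 3. Spon1, a secreted matrix protein, was at 5.73, 2.06 and 3.94 CPM against 38.4, 122 and 97.1 CPM (4.44 ± 0.58). The other genes among the 10 with the largest increase, of called genes with a mean of at least 20 CPM, were Gfra2 (a coreceptor for neurturin, 4.19), Dkk2 (a secreted Wnt modulator, 4.17), Gpx3 (the extracellular glutathione peroxidase, 3.96), Eln (elastin, 3.81), Col6a1 (3.64), Dpt (dermatopontin, 3.48) and Lum (lumican, 3.45), with adjusted p between 0.0273 and 0.0408. On a scale of all 9 libraries together, used for every sham value and for the sums over lists, Col3a1 was at 146 to 417 CPM in LT and 3294 to 8179 CPM with raised flow. In sham, Col3a1 ranged on that scale from 702 to 13671 CPM, Col1a1 from 477 to 8222 CPM and Spon1 from 10.6 to 65.4 CPM, with sham library 1 the lowest in each.

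Of the matrix list, 9 members were called and none was lower. Of its 14 members in the files, all 14 had a positive log2 fold change, 9 rose, 12 did not overlap between the groups (31.4% of all genes did not overlap, and 15.2% were higher without overlap), and the median was 2.94 against -0.05 for all genes tested. Besides the genes above, Col5a1 (3.28), Col5a2 (3.10), Col6a2 (3.22), Col12a1 (3.41), Sparc (2.78) and the collagen crosslinking enzyme Lox (2.49) rose. Fibronectin, Fn1, did not pass the test (232, 217 and 70.7 CPM against 546, 428 and 362 CPM, 1.36 ± 0.45, adjusted p = 0.111). Summed over the list, LT libraries were at 1753, 859.8 and 1198 CPM, flow libraries at 8217, 17948 and 13833 CPM, and sham libraries at 2312, 22388 and 27970 CPM. Of the 8 fibroblast markers in the files, Col1a1 and Col3a1 are in the list. The other 6 moved with it, from 385 to 919 CPM in LT to 2946 to 6165 CPM with raised flow, as did the share of these cells.

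HIF targets were among the genes that fell most. Ca9, the carbonic anhydrase IX that cells make under low oxygen, was at 5.95, 87.2 and 73.0 CPM in LT and at 1.80, 2.01 and 1.26 CPM with raised flow (-5.03 ± 0.96, adjusted p = 0.0337). Ndufa4l2, a mitochondrial protein induced by HIF, was at 19.2, 220.2 and 374 CPM against 6.96, 6.66 and 8.30 CPM (-4.81 ± 0.99). Egln3, a prolyl hydroxylase that HIF itself induces, was at 13.2, 168 and 173 CPM against 7.19, 5.68 and 9.61 CPM (-3.98 ± 0.90, adjusted p = 0.046). In all 3 genes the groups did not overlap, but LT library 1 lay far below the other LT libraries and close to the flow libraries. Sham libraries were at 2.39 to 3.61 CPM for Ca9, 3.50 to 13.3 CPM for Ndufa4l2 and 11.6 to 15.9 CPM for Egln3.

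Glycolytic enzymes fell over a wider part of the pathway. Of 12 members tested, all 12 were lower, 6 fell, 10 did not overlap (16.2% of all genes were lower without overlap), and the median was -1.65. Pgk1, the phosphoglycerate kinase that yields the first ATP of the pathway, was at 1279, 5633 and 5780.3 CPM in LT and at 770.5, 397 and 532 CPM with raised flow (-2.90 ± 0.60, adjusted p = 0.0382). Tpi1, triosephosphate isomerase, was at 77.9, 157 and 153 CPM against 40.2, 28.7 and 21.3 CPM (-2.10 ± 0.36, adjusted p = 0.0281). Slc16a3, which exports lactate, was at 63.5, 159 and 118 CPM against 26.5, 23.8 and 7.34 CPM (-2.56 ± 0.56). Aldoa (-1.53), Gpi (-1.65) and Eno1 (-1.65) also fell. Ldha (lactate dehydrogenase A, -1.41 ± 0.38, adjusted p = 0.0694) and Pgam1 (-1.24 ± 0.33, adjusted p = 0.0654) did not overlap but were not called. Summed, the list was at 6544, 16105 and 15717 CPM in LT, 4707, 2604 and 3341 CPM with raised flow and 1377 to 1723 CPM in sham.

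Of the HIF target list, all 17 members tested were lower, 2 fell (Egln3 and the MYC antagonist Mxi1, -1.50), 5 did not overlap, and the median was -1.50, where 4.25% of all genes fell and 16.2% were lower without overlap. The others split the LT libraries. Ndrg1 was at 53.7, 1135 and 837 CPM in LT against 39.3, 52.9 and 48.5 CPM (adjusted p = 0.0613), and Bnip3, a mitophagy receptor, at 45.7, 678 and 537 CPM against 41.0, 24.8 and 44.6 CPM (adjusted p = 0.0627). Ero1a was at 31.0, 839 and 337 CPM against 41.9, 26.7 and 27.1 CPM, where LT library 1 lay inside the flow range. Vegfa, the main vascular growth factor of this list, was at 75.9, 586 and 326 CPM against 90.2, 208 and 134 CPM (-1.19 ± 0.69, adjusted p = 0.327). Summed over the list, LT libraries were at 704, 5697 and 3768 CPM, flow libraries at 799.7, 829 and 980.5 CPM, and sham libraries at 720.4, 856 and 876 CPM. Without LT library 1, 13 of the 17 members fell, as did 1558 of all 14962 genes tested.

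**Figure D2:**
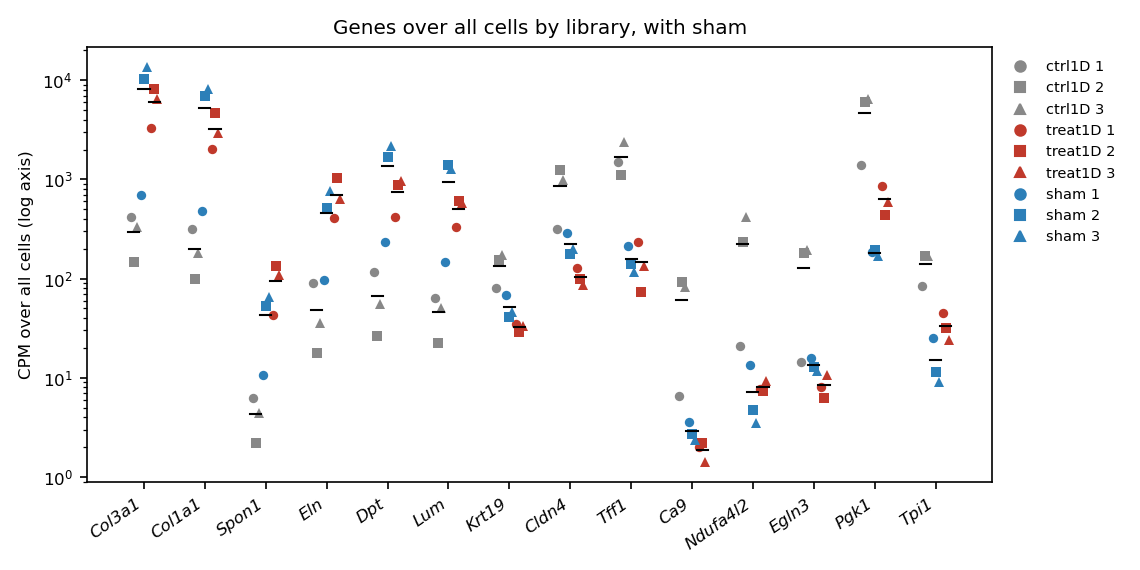
Level of 14 genes over all cells of each library (CPM, log axis, with all 9 libraries scaled together). Gray, red and blue points are LT, flow and sham libraries, the symbol gives the library number and the bar the group mean. For Ca9, Ndufa4l2 and Egln3, LT library 1 lies beside the flow and sham libraries, and for the collagens LT is below the other groups.

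Several epithelial genes fell too. Of 6 simple keratins, 5 fell and none overlapped (median -1.98), where 4.25% of all genes tested fell and 16.2% were lower without overlap. Krt7, a keratin typical of bile ducts, was at 810.4, 1678 and 2113 CPM in LT and at 312, 287 and 248 CPM with raised flow (-2.44 ± 0.36, adjusted p = 0.0279). Krt19 (-2.08), Krt8 (-1.83), Krt18 (-1.89) and Krt23 (-3.59) also fell, and Krt20 did not pass (-1.67 ± 0.41, adjusted p = 0.055). Of 11 tight junction genes, 8 fell (median -1.79, 4.25% of all genes), among them the sealing claudin Cldn4, at 289.9, 1172 and 879 CPM against 114, 90.1 and 75.9 CPM (-3.07 ± 0.52, adjusted p = 0.0281), occludin (Ocln, -1.78) and the junctional adhesion molecule F11r (-1.93). Cldn3, Cldn7, Cgn, Tjp3 and Marveld2 fell as well, by 1.35 to 1.88 on the log2 scale.

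The trefoil peptides, which protect mucosal surfaces, fell with them. Tff1 was at 1366, 1048 and 2155 CPM in LT and at 209, 66.0 and 121 CPM with raised flow (-3.53 ± 0.50, adjusted p = 0.0276), and Tff2 at 29.6, 37.2 and 40.1 CPM against 1.92, 3.11 and 3.70 CPM (-3.61 ± 0.30, adjusted p = 0.0273). In both, LT library 1 was with the other LT libraries. Tff3 (-2.31) and Wfdc2 (-1.06) were the other called members of 11 mucosal defense genes (median -1.55, where 4.25% of all genes fell), and the antimicrobial lectin Reg3g overlapped (5833, 15337 and 18582 CPM against 3237, 3317 and 7006 CPM). Of the 10 genes with the largest decrease under the same limit, the secreted Slurp1 (-4.25), the retinol carrier Rbp2 (-4.21), the ubiquitin ligase Rnf186 (-3.66), Krt23 and Sdcbp2 (-3.45) are also made by epithelia. The biliary factors Hes1 (-1.54), Pdx1 (-1.97) and Cd24 (-2.07) fell among 9 tested (4.25% of all genes), and so did the secretory genes Cftr (-1.35), Ano1 (-1.48) and Aqp5 (-1.59) among 13 tested, while the bile acid receptor Gpbar1 rose (3.83, where 3.48% of all genes rose, from 0.843 to 1.67 CPM in LT to 8.57 to 36.2 CPM). Of the 10 BEC markers, 7 are members of the lists above, so their sum is not a separate measure. The other 3 (Epcam, Tspan8 and Anxa4) summed to 2677 to 4837 CPM in LT and to 1057 to 1392 CPM with raised flow, and the share of BEC moved in the same direction. With equal cell type shares, Cftr (0.24), Wfdc2 (0.34) and Marveld2 (0.18) had the opposite sign.

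The UMI sums of 12 populations, those with at least 20 cells in every library, were rescaled so that each held the same share of UMIs in every library. The other classes were left out. No gene was then called by edgeR (1057 at an unadjusted p below 0.05). Of the 1112 called genes that could be tested, 918 kept their direction, and 281 did so with an unadjusted p below 0.05. The rescaling gave more weight to the few fibroblasts of LT (107, 24 and 60 cells), which can add noise. The lists differed in how their medians moved. Those of glycolysis (-1.52) and HIF targets (-1.46) stayed close to the medians from the cells as captured. The medians of keratins (-0.38), tight junctions (-0.33), mucosal defense (0.00) and biliary factors (-0.01) went close to 0, and that of the matrix list went from 2.94 to 0.55. Some keratins, claudins and collagens are markers of the classes whose shares were equalized. Glycolysis genes and HIF targets were left out of the clustering. The contrast between these lists is therefore partly built in. DESeq2 was not run on these rescaled sums.

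**Figure D3:**
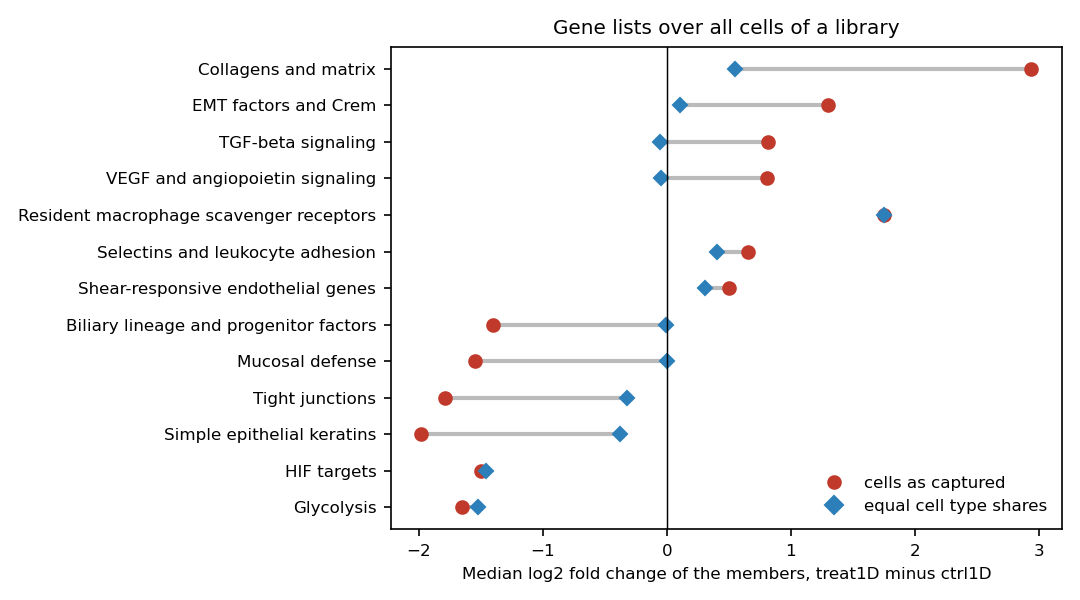
Median log2 fold change (treat1D minus ctrl1D) of the members of 13 gene lists over all cells. Red circles take the cells as captured and blue diamonds the sums with equal cell type shares. Glycolysis and HIF targets keep medians of -1.65 and -1.50 against -1.52 and -1.46, whereas keratins go from -1.98 to -0.38 and matrix genes from 2.94 to 0.55. Some keratins and matrix genes are markers of the equalized classes.

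Among the lists of signaling genes, 4 of 17 TGF-β genes rose over all cells (median 0.82, where 3.48% of all genes rose), namely Tgfb2 (1.63), the coreceptor Tgfbr3 (2.29) and the latent TGF-β binding proteins Ltbp1 (2.29) and Ltbp2 (3.55), and with equal shares the median was -0.06. Of 9 EMT (epithelial-mesenchymal transition) genes, Snai1 (1.32), Snai2 (2.97) and Twist1 (2.13) rose and the epithelial cadherin Cdh1 fell (-1.48), against 3.48% and 4.25% of all genes. Vim, the vimentin of mesenchymal cells, was at 1472, 569 and 551 CPM in LT and at 2404, 1603 and 1216 CPM with raised flow (1.01 ± 0.46, adjusted p = 0.215), and LT library 1 lay inside the flow range. Crem was at 161, 181 and 80.5 CPM against 142, 164 and 125 CPM (0.03 ± 0.32). Of 16 genes of VEGF and angiopoietin signaling, Vegfc (2.29), Nrp1 (2.32), Nrp2 (1.09) and Angpt1 (2.04) rose (3.48% of all genes), with a list median of 0.81 that became -0.04 with equal shares. Snai1, Tgfbr3, Angpt1, Lox and Cdh1 had the opposite sign with equal shares (-0.36, -0.34, -0.07, -0.23 and 0.14).

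Of the stress and immune lists, few members passed over all cells, where 3.48% of all genes rose and 4.25% fell. Jund (-1.42) and Atf3 (-1.56) fell among 18 immediate early genes (median -0.43), the cochaperone Dnajb1 (-1.24) among 8 heat shock genes (0.01), Il33 (-1.57), an alarmin stored in nuclei, among 11 IL-1 family genes (-0.94), and S100a6 (-1.33) and S100a11 (-1.42) among 6 S100 genes (-0.71). Fkbp5 (1.40), a target of the glucocorticoid receptor, rose among 6 such genes (0.68), S1pr1 (0.92) among 14 shear-responsive genes (0.50), Icam1 (0.94) among 12 adhesion genes (0.65) and Mmp2 (3.23) among 9 metalloproteinase genes (0.49). No member was called among the genes of the respiratory chain (14 tested, median -0.14), interferon response (20, -0.73), unfolded protein response (13, -0.14), NRF2 (11, -0.61), IL-6 and STAT3 (11, 0.26), complement (11, 0.11), MHC class II (6, 0.38), macrophage scavenger receptors (6, 1.75), neutrophil granules (7, -0.99), CXC (5, -2.07) and CC chemokines (11, -0.03), cytotoxic effectors (7, -0.08) and the cell cycle (15, -0.00). The same held for 2 Y-linked genes (median -0.11). LT library 1 turned several of these medians. Without it, interferon response genes had a median of 0.46 with 2 called higher, CC chemokines 0.59 with 2 called higher, cytotoxic effectors 1.03, the respiratory chain 0.015 and heat shock genes -0.28. In that fit 1048 of all 14962 genes were called higher. The medians of MHC class II (2.41), scavenger receptors (4.18, 2 called higher) and complement (1.06) were then further from 0. Of the 139 genes of these 14 lists, 26 had an unadjusted p below 0.05 and 18 were called by DESeq2. Among all genes, 26.5% had an unadjusted p below 0.05 and DESeq2 called 2619 of 14532.

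Within cell classes, glycolytic genes were lower with raised flow in nearly every population. The test was run on 9 named classes and 3 unnamed clusters with at least 20 cells in all 6 libraries. Tpi1 was lower in 11 of the 11 populations in which it was tested, with no overlap in 10, and its log2 fold changes ran from -2.38 (cluster 2) to -1.52 (cluster 18). Gpi and Aldoa were lower in 12 of 12 populations and did not overlap in 11 of them. Bnip3 was lower in 11 of 11 populations (log2 fold changes from -5.39 to -2.02) but overlapped in all but BEC, monocytes, VSMC and cluster 2. The populations come from the same 6 libraries, so these counts are not independent.

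Of the glycolysis list, the members that were lower without overlap were 10 of 12 in BEC (6.65% of all genes tested there), 9 of 12 in cluster 2 (6.14%), 8 of 11 in tuft cells (2.72%), 10 of 12 in fibroblasts (4.17%), 6 of 11 in VSMC (8.35%), 4 of 12 in EC (5.7%), 6 of 10 in macrophages (5.25%) and 9 of 10 in monocytes (6.97%). Medians ran from -2.01 in BEC to -1.01 in macrophages, against medians of all genes between -0.02 and 0.04. In neutrophils none of 10 members was lower without overlap (3.64%), and the median was -1.32. T cells had 2 of 8 (2.97%) and a median of -0.15. HIF targets had their lowest medians in BEC (-2.72, 7 of 16 lower without overlap), cluster 2 (-2.23, 1 of 16) and VSMC (-1.77, 3 of 14), and a median of -0.22 in T cells (0 of 12). The shares of all genes were 6.65%, 6.14%, 8.35% and 2.97%. In EC, fibroblasts and macrophages 0 of 16 HIF targets were lower without overlap. No member of either list was called in any class or cluster by edgeR with all 6 libraries and no block (with the library number as a block, 1 glycolysis gene fell in fibroblasts), while 107 of 127 tests of glycolysis genes and 72 of 166 tests of HIF targets had an unadjusted p below 0.05, and DESeq2 called 54 and 33. Of all genes tested in a population, 1.32% (tuft cells) to 10.6% (VSMC) had an unadjusted p below 0.05. DESeq2 called from 0 of 4853 genes in tuft cells to 260 of 11239 in BEC. Without LT library 1, 11 of 12 glycolysis genes and 14 of 16 HIF targets fell in BEC, 11 and 12 in cluster 2, 10 of 11 and 11 of 14 in VSMC, and 8 of 12 and 7 of 16 in EC. Of all genes in that fit, 477 of 11635 fell in BEC, 560 of 10337 in cluster 2, 209 of 7245 in VSMC and 146 of 8491 in EC. In fibroblasts 5 of 12 and 4 of 16 members fell in that fit, in macrophages 0 of 10 and 2 of 16, and in T cells 0 of 8 and 0 of 12. Among all genes, 33 of 12737 fell in fibroblasts, 8 of 7999 in macrophages and 3 of 5656 in T cells. LT library 1 had the lowest sum of both lists over all cells in LT, so leaving it out widens their difference. Without LT library 2 or without LT library 3, 0 genes were called in BEC, cluster 2, VSMC, EC, fibroblasts and macrophages. After subtraction of the profile of empty barcodes, the medians of the glycolysis list were -2.01 in BEC, -1.56 in fibroblasts and -1.06 in EC, close to those before it. In tuft cells the median went from -1.35 to -0.98, and that of HIF targets from -0.68 to -0.46 there.

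**Figure D4:**
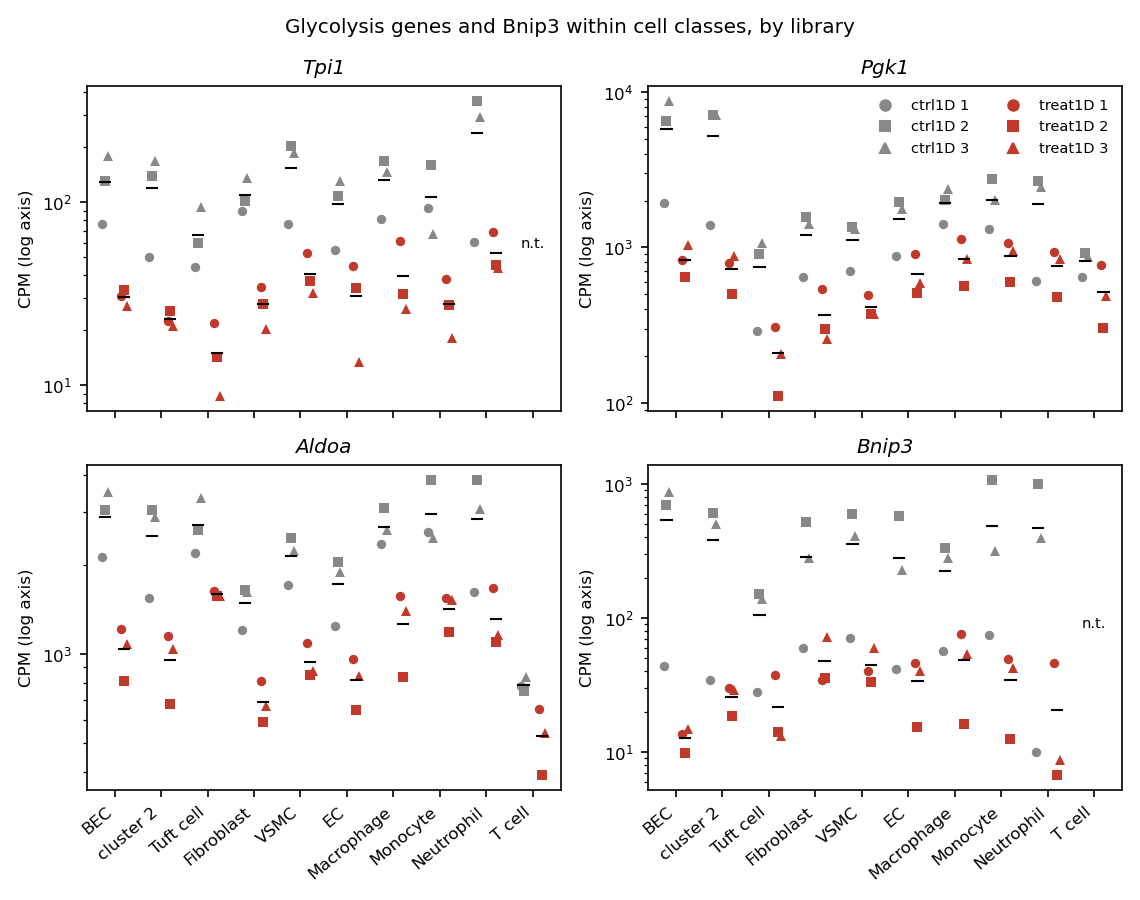
Tpi1, Pgk1, Aldoa and Bnip3 in 10 cell populations (CPM, log axis). Gray points are LT libraries and red points flow libraries, the symbol gives the library number, the bar is the group mean, and n.t. marks a gene that did not pass the filter on low counts. Flow libraries lie below LT libraries for Tpi1 except in neutrophils, and LT library 1 is the lowest LT library for Bnip3 in each population shown.

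In BEC, no gene of 11239 was called by edgeR (0.0%), with 1039 at an unadjusted p below 0.05 and 260 called by DESeq2. Without LT library 1 edgeR called 556, of which 477 were lower. Bnip3 was at 44.1, 698 and 869.6 CPM in LT libraries 1, 2 and 3 and at 13.7, 9.89 and 14.8 CPM with raised flow (-5.39 ± 0.97, adjusted p = 0.275). Ldha was at 1259, 3552 and 3619 CPM against 632, 419 and 746 CPM (-2.23 ± 0.43), and Slc16a3 at 28.6, 151 and 174 CPM against 10.1, 8.53 and 11.8 CPM (-3.53 ± 0.62). The glucose carrier Slc2a1 was at 35.2, 656 and 314 CPM against 23.0, 27.8 and 30.7 CPM. In each of these, LT library 1 was the lowest LT library and still above the flow range.

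Outside metabolism, the lower genes of BEC with the smallest p-values were Slfn4, a member of the interferon-inducible Schlafen family (67.2, 137 and 108 CPM against 22.1, 18.4 and 15.1 CPM, -2.49 ± 0.32, adjusted p = 0.136), the steroid reductase Srd5a1 (-1.89 ± 0.33) and the heparanase Hpse (-1.84 ± 0.33). All 3 had LT libraries on one side and flow libraries on the other. The higher gene with the smallest p-value was Col3a1, a fibroblast gene (4.80, 1.47 and 1.82 CPM against 32.0, 78.5 and 83.2 CPM, 4.496 ± 0.56, adjusted p = 0.136). The 8 fibroblast markers summed to 92.54 to 186 CPM in the LT sums of BEC and to 295 to 427 CPM in those with raised flow, and their part in these values was not tested. Other higher genes included Gp2 (11, 10.7 and 22.1 CPM against 25.8, 53.8 and 55.4 CPM), Maged1 and the matrix Gla protein Mgp. Il33 was at 239.8, 311 and 240.6 CPM against 123, 136 and 139 CPM (-0.99 ± 0.23, adjusted p = 0.278). Within BEC, keratins had a median of -0.37, tight junctions of -0.58 and mucosal defense genes of -0.07. In each list 1 member, of 6, 11 and 11, was lower without overlap, where 6.65% of all genes tested in BEC were. Krt7, Krt8, Krt18, Krt19, Cldn4 and Cldn7 are also markers that name the BEC class. Reg3g was at 12611, 19111 and 18647 CPM against 15155, 14717 and 25302 CPM. Of 11 secretory genes, Slc4a2 (0.54), the bicarbonate exchanger of ducts, Car2 (0.95), a carbonic anhydrase, and Slc10a2 (1.71), which takes up bile acids, were higher without overlap (6.35% of genes). Vim was at 102, 46.9 and 29.3 CPM against 182, 104 and 73.5 CPM, and Crem at 19.2, 24.9 and 16.5 CPM against 19.6, 22.3 and 22.7 CPM, and both overlapped. TGF-β genes had a median of -0.56 and EMT genes of 0.88, with none of 6 EMT genes outside the other group's range.

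Since cluster 15 held BEC of LT almost alone, the test was repeated on BEC of clusters 6 and 9, an alternative chosen after seeing the data. No gene of 10926 was called (533 at an unadjusted p below 0.05). Tpi1 (-2.02), Pgk1 (-2.26) and Bnip3 (-4.33) kept their sign, against -2.08, -2.78 and -5.39 in all BEC, and Bnip3 was the one that moved most. Slfn4 was at -1.13 in place of -2.49, and Krt7 changed sign (0.25 against -1.04). DESeq2 was not run on this subset. The BEC sums also held free RNA, estimated at 3.58% to 7.95% of their UMIs.

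Cluster 2 showed the same metabolic genes and a lower trefoil peptide. None of 9688 genes was called by edgeR (0.0%, 825 at an unadjusted p below 0.05, 162 by DESeq2), and 810 were called without LT library 1. Tff1 was at 3008, 1675 and 4368 CPM in LT and at 745, 357 and 685 CPM with raised flow (-2.34 ± 0.41, adjusted p = 0.302), with no overlap, and Ca9 at 41.5, 143 and 134 CPM against 18.7, 13.3 and 8.61 CPM. The sulfotransferase Tpst1 was at 46.4, 62.3 and 66.9 CPM against 18.7, 18.3 and 16.4 CPM (-1.72 ± 0.21, adjusted p = 0.14), and the pentraxin Apcs at 153, 88.5 and 108 CPM against 33.8, 30.8 and 40.9 CPM. Gp2 (1.78), the phosphate carrier Slc34a2 (1.47), Tmem123 (1.28) and the tubulin Tuba1a (1.17) were higher in every flow library. Of these, Tff1, Tpst1 and Apcs did not have LT library 1 near the flow group.

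In fibroblasts, glycolytic genes were lower and fibrillar collagens higher with raised flow, without a called gene. Of 11549 genes none passed (0.0%, 555 at an unadjusted p below 0.05, 57 by DESeq2), and without LT library 1 38 did, 33 of them lower. Tpi1 was at 89.5, 101 and 136 CPM in LT and at 34.6, 27.9 and 20.4 CPM with raised flow (-1.98 ± 0.29, adjusted p = 0.614). Pkm was at 42.9, 153 and 99.97 CPM against 25.2, 26.4 and 23.4 CPM, and Ldha at 1825, 2249.6 and 2594 CPM against 1093, 496 and 898 CPM. These genes did not overlap, and LT library 1 was the lowest LT library in all 3. Timp1, an inhibitor of metalloproteinases, was at 15957, 17588 and 20348 CPM against 6761, 4534 and 10010 CPM (-1.34 ± 0.29, adjusted p = 0.673). Fam162a, a HIF-responsive mitochondrial gene, had a log2 fold change of -1.76, and Apln, the ligand of the apelin receptor, was at 18.5, 106 and 76.1 CPM against 11.4, 2.35 and 1.68 CPM.

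Col3a1 in fibroblasts was at 4402, 5113 and 5289 CPM in LT and at 8459, 14013 and 12604 CPM with raised flow (1.24 ± 0.24, adjusted p = 0.673), and Col1a1 at 3266, 3101 and 2985 CPM against 5157, 8062 and 5784 CPM (1.02 ± 0.23). In both genes every flow library lay above every LT library. Both are also markers that name the class and were not left out of the clustering. Of 14 matrix genes, 7 were higher without overlap (6.74% of genes), and the median was 0.82. Spon1 (1.32), Tsku (1.55) and Ccn2, a TGF-β-induced matricellular protein (29.1, 7.42 and 24.8 CPM against 75.8, 109 and 50.5 CPM, 1.79 ± 0.42), were the other higher genes with the smallest p-values. TGF-β genes had a median of 0.43 with 2 of 16 higher without overlap, Vim a log2 fold change of 0.11, and cell cycle genes a median of -0.17. LT libraries held 107, 24 and 60 fibroblasts against 898, 2092 and 2936. In cluster 5 alone, where LT library 2 had 7 cells, none of 8272 genes was called (437 at an unadjusted p below 0.05), Tpi1 was at -1.54, Pgk1 at -1.41 and Col1a1 at 0.77.

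VSMC had 1 called gene of 6974 (0.0143%, 741 at an unadjusted p below 0.05, 128 by DESeq2). The metallothionein Mt1, which binds zinc and copper, fell from 8338, 9668 and 10019 CPM in LT to 2067, 1757 and 2474 CPM with raised flow (-2.15 ± 0.26, adjusted p = 0.0413). All libraries of a group lay close together for it, LT library 1 included. The higher genes with the smallest p-values were the proteoglycan Vcan (10.7, 12.9 and 4.03 CPM against 40.3, 95.8 and 117 CPM, 3.28 ± 0.51, adjusted p = 0.0838), the filamin Flnc (2.80), Col12a1 (2.15), Adam19 (2.70) and Mfap5 (3.06, 0 and 0 CPM against 37.5, 163 and 141 CPM). Mfap5 is a fibroblast marker. It passed the filter on low counts only through the flow group, so its direction was built in. Of the matrix list, 9 of 14 were higher without overlap (7.79% of genes), with a median of 1.52 and Col1a1 at 2.57. The 8 fibroblast markers, of which Col1a1 and Col3a1 are also matrix genes, moved with it in these cells (235 to 446 CPM against 606 to 2642 CPM for the other 6), from 701 to 1487 CPM in LT to 2971 to 10420 CPM with raised flow, and 1 or 2 of them were at 0 in each LT library. Free RNA was estimated at 2.09% to 6.65% of VSMC UMIs in LT and at 6.27% to 11.8% with raised flow. After its subtraction the matrix median was 1.56, and the part of fibroblasts among these cells was not tested. The contractile genes Acta2 (5666, 131 and 211 CPM in LT, 9032, 3578 and 4205 CPM with raised flow) and Tagln (10387, 111 and 323 CPM, then 12075, 6199.8 and 6048 CPM) were low in LT libraries 2 and 3 in this class, and both overlapped. Both are among the markers that name the class. The VSMC of LT libraries 2 and 3 may therefore be unlike those of the other libraries, also where Mt1 and matrix genes are compared. Whether they are was not tested. The cell cycle kinase Cdk1, chosen after its values were seen, was at 2.29, 1.85 and 3.23 CPM against 29.1, 23.7 and 9.26 CPM, with an adjusted p of 0.112. Without LT library 1 354 genes were called. Counts were 99, 75 and 153 cells in LT and 63, 106 and 180 cells with raised flow.

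A further stromal population, cluster 18, led by Steap1, Timp1, Fbln2 and the mesothelial Msln, had none of 5832 genes called (0.0%, 331 at an unadjusted p below 0.05, 38 by DESeq2, 74 without LT library 1). The fibrinogen chain Fgg was at 3.8, 0 and 5.11 CPM in LT and at 24.1, 49.8 and 42.0 CPM with raised flow (adjusted p = 0.164), complement C3 at 8.10, 13.3 and 8.95 CPM against 41.8, 38.4 and 90.0 CPM, and the caveolin Cav1 at 9.12, 15.2 and 14.1 CPM against 63.0, 44.1 and 39.9 CPM. Fgg passed the filter on low counts only through the flow group, so its direction was built in. Col6a2 (1.76) and Fn1 (1.93) were also higher. G0s2, an inhibitor of lipolysis that answers to low oxygen in many cells, was at 504, 1142 and 1309 CPM against 98.6, 183 and 233 CPM, and Ugp2 (-1.46), Higd1a (-1.63) and Aldoa (-1.02) were lower too. None of these genes overlapped between the groups.

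In EC, thrombomodulin, adhesion molecules and some angiogenic receptors were higher in every flow library, without a called gene, whereas the transcription factors best known for shear stress overlapped between the groups. No gene of 8058 was called by edgeR (0.0%, 589 at an unadjusted p below 0.05, 26 by DESeq2), and 12.8% did not overlap. Without LT library 1 350 genes were called, 204 of them higher. Thbd, the anticoagulant receptor thrombomodulin, was at 91.8, 93.3 and 58.3 CPM in LT libraries 1, 2 and 3 and at 287, 325 and 259.6 CPM with raised flow (1.83 ± 0.26, adjusted p = 0.254). Plpp3, a lipid phosphatase of the endothelial surface, was at 137, 98.8 and 89.0 CPM against 231, 259 and 296 CPM (1.27 ± 0.25). Epas1, which encodes HIF-2α, was at 173, 123 and 107 CPM against 258, 397 and 408 CPM (1.39 ± 0.28, adjusted p = 0.589). All LT libraries, the first included, lay below all flow libraries in these 3 genes.

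Leukocyte adhesion genes had 4 of 6 members higher without overlap in EC (7.1% of genes), with a median of 1.86. Icam1, the integrin ligand for firm adhesion, was at 73.7, 60.4 and 59.8 CPM against 124, 243 and 376 CPM (1.93 ± 0.38), and Vcam1 at 10.6, 8.78 and 3.07 CPM against 39.2, 28.4 and 17.0 CPM (1.79 ± 0.47). The rolling receptors split the LT libraries. Sele was at 42.5, 0 and 1.53 CPM against 80.9, 166 and 89.3 CPM, and Selp at 196, 11 and 9.21 CPM against 308, 455 and 298 CPM. Of the VEGF and angiopoietin list, 7 of 14 had a positive and 7 a negative log2 fold change, with a median of 0.02, and without LT library 1 2 members rose and 2 fell (204 and 146 of all 8491 genes). The 4 that were higher without overlap included the receptors Kdr (115, 137 and 132 CPM against 196, 299 and 211 CPM, 0.88 ± 0.25), Tek (1.25 ± 0.36) and Nrp1 (1.03 ± 0.26). Kdr is also one of the markers that name the EC class. Angpt2, a Tek antagonist that hypoxic endothelium makes, was at 18.7, 205 and 150.4 CPM against 25.8, 16.3 and 32.2 CPM and overlapped through LT library 1.

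Of 13 shear-responsive genes tested in EC, 4 were higher without overlap (7.1% of genes) and the median was 0.41. Thbd, Vcam1 and Tek, given above, are among them. Vcam1 and Tek are also counted in the adhesion and VEGF lists, so these counts are not separate results. The list was not split into genes that shear raises and genes that it lowers, so its median does not measure a shear response. Klf2, a factor that laminar shear induces, was at 60.6, 65.8 and 55.2 CPM in LT and at 67.5, 16.8 and 35.1 CPM with raised flow (-0.61 ± 0.44). Klf4 was at 214, 515 and 310.0 CPM against 377, 412 and 475 CPM (0.29 ± 0.31), and Nos3, the endothelial nitric oxide synthase, at 116, 281 and 226 CPM against 224, 260.4 and 336 CPM (0.40 ± 0.33). The groups overlapped in all 3, and SEs of 0.31 to 0.44 log2 units leave room for sizable differences in both directions. The mechanosensitive channel Piezo1 overlapped as well (0.41 ± 0.32). Lower genes with the smallest p-values were Ifi27l2b (649, 664 and 1091 CPM against 271, 171 and 164 CPM, -1.99 ± 0.30, adjusted p = 0.254), Grap (-1.75), Aldoa (-1.08), Lypd8 (-2.40) and Acp5 (-3.80). Lypd8 is an epithelial gene, and free RNA was estimated at 1.69% to 6.61% of EC UMIs in LT and at 4.33% to 14.5% with raised flow. The 8 fibroblast markers summed to 32.5 to 61.6 CPM in the EC of LT and to 115 to 329 CPM with raised flow, and their part in the EC values was not tested. EC of the flow group included cluster 37 (8.96%, none in LT, 86.4% of it from flow library 3), and cluster 26 held 35.6% of LT EC and 12.1% of flow EC.

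**Figure D5:**
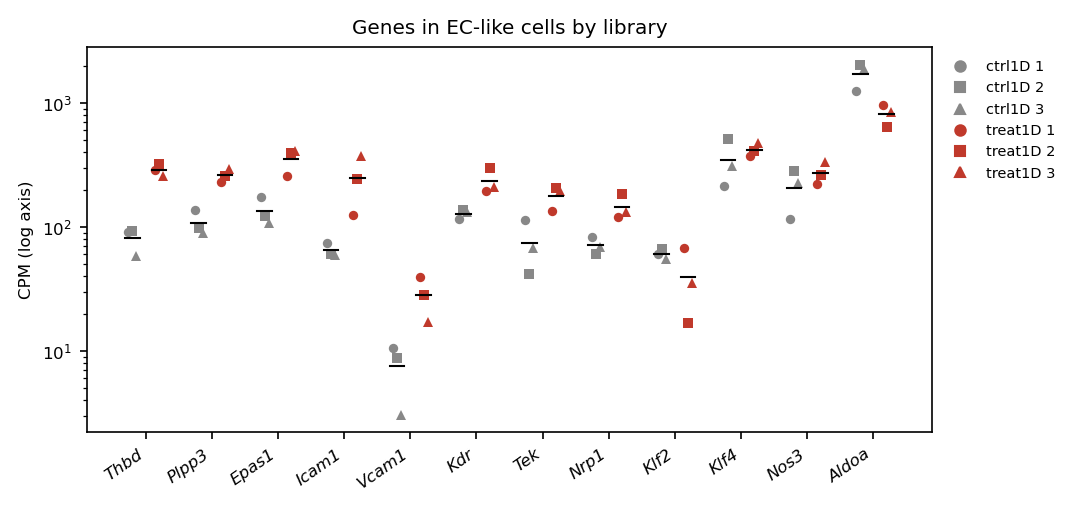
Level of 12 genes in EC-like cells of each library (CPM, log axis). Gray points are LT libraries and red points flow libraries, the symbol gives the library number and the bar the group mean. The groups are apart for Thbd, Plpp3, Epas1, Icam1, Vcam1, Kdr, Tek, Nrp1 and Aldoa and overlap for Klf2, Klf4 and Nos3.

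In macrophages, scavenger receptors of tissue-resident cells had positive log2 fold changes without a called gene, and the groups drew on different clusters. Cluster 21, with Mrc1 and Cd163 among its leading genes, held 11.4% of LT and 26.5% of flow macrophages, and cluster 17, a cluster of low UMI counts without Cd163 among its detected markers, 46.6% and 22.1%. The part of these clusters in the values below was not tested. None of 8303 genes was called by edgeR (0.0%, 528 at an unadjusted p below 0.05, 17 by DESeq2, 8 without LT library 1). Of 6 receptors tested, 3 were higher without overlap (7.47% of genes) and the median was 1.55. Mrc1, Cd163 and Vsig4 are also markers that name the class and were not left out of the clustering. The share of all genes is therefore not a like background for them. Vsig4 passed the filter on low counts only through the flow group. The mannose receptor Mrc1 was at 316, 46.8 and 292 CPM in LT and at 487, 1212 and 1378 CPM with raised flow (2.17 ± 0.65, adjusted p = 0.771), the hemoglobin receptor Cd163 at 239, 4.68 and 169 CPM against 419, 588 and 623 CPM, and Vsig4 at 3.35, 0 and 0 CPM against 30, 4.77 and 73.2 CPM. LT library 2, with 51 macrophages, was the lowest for Mrc1 and Cd163. Ccl2, which attracts monocytes, was at 1306, 786 and 881 CPM against 2300, 2909 and 1539 CPM (1.18 ± 0.28). Col3a1 (2.90) and Mgp (2.05), genes of stromal cells, had smaller p-values than Ccl2, and the 8 fibroblast markers summed to 213 to 249 CPM in LT macrophages and to 262 to 514 CPM with raised flow. Il4r (1.08) and the chaperone Hsp90b1 (0.82) were also higher. Acp5, an acid phosphatase of activated macrophages, was at 115, 271 and 407 CPM against 40.3, 28.1 and 42.4 CPM (-2.80 ± 0.43, adjusted p = 0.445), Slfn4 at 1009, 819 and 493 CPM against 342, 161 and 203 CPM, and Phyh, Lgals3bp and Klra2 were lower by 1.36 to 1.63 log2 units. Interferon-stimulated genes had a median of -1.48 over 16 genes, and Isg15 was at 344, 60.8 and 36.4 CPM against 92.49, 32.0 and 26.3 CPM, so the median rested on LT library 1 (-0.03 without it).

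Monocytes had no called gene of 6883 (0.0%, 538 at an unadjusted p below 0.05, 65 by DESeq2, 253 without LT library 1). Slamf9, a surface receptor of myeloid cells, was at 103, 237 and 80.4 CPM in LT and at 20.3, 16.7 and 21.4 CPM with raised flow (-2.87 ± 0.42, adjusted p = 0.0951). F13a1, the A subunit of coagulation factor XIII, was at 30, 102 and 121 CPM against 8.48, 9.95 and 12.3 CPM (-3.00 ± 0.50), and Slpi, a secreted inhibitor of neutrophil proteases, at 29601, 113030 and 32816 CPM against 7845, 6699.6 and 6619.8 CPM (-3.05 ± 0.52). Groups did not overlap in these genes or in Slfn4 (-1.99), and Oasl overlapped. The higher gene with the smallest p-value was again Col3a1 (4.14 ± 0.63, adjusted p = 0.0951), and Mgp (1.65) was also among the first 5, while fibroblast markers summed to 78.1 to 97.5 CPM in LT and to 178 to 297 CPM with raised flow. The translation factor Eif3b was at 44.0, 29.4 and 30.1 CPM against 86.6, 97.0 and 92.2 CPM (1.37 ± 0.31), with the nuclear importin Ipo7 (1.23) and the ribosome-recycling Abce1 (1.32) next. Cluster 33 held 28.4% of LT monocytes and 0.773% of those with raised flow, and 90.4% of it came from LT library 2.

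Neutrophils had 1 called gene of 5993 (0.0167%, 358 at an unadjusted p below 0.05, 17 by DESeq2, 146 without LT library 1), T cells 2 of 5045 (0.0396%, with 0.0198% higher and 0.0198% lower, 151 and 4, and 4 without LT library 1) and the low-UMI cluster 1 3 of 3048 (0.0984%, 182 and 10, and 36 without LT library 1). Col3a1, Col1a1, Tff1 and Lypd8, the called genes, are made by fibroblasts or epithelia. Col3a1 rose in all 3 populations, in T cells from 3.75, 14.7 and 0 CPM to 81.4, 131 and 80.3 CPM (4.66 ± 0.71, adjusted p = 0.00569). Tff1 fell in T cells, from 31.9, 44.1 and 82.5 CPM to 3.62, 5.56 and 6.42 CPM (adjusted p = 0.019), and Col1a1 rose (adjusted p = 0.0257) and Lypd8 fell (adjusted p = 0.00252) in cluster 1. Free RNA was estimated at 2.03% to 5.98% of T cell UMIs and 3.33% to 7.86% of neutrophil UMIs. After its subtraction no gene was called in T cells or neutrophils, and Col3a1 no longer passed the filter on low counts there, in BEC, macrophages or monocytes. It was still tested in fibroblasts and VSMC. For T cells the deviations of same-numbered libraries correlated at r = 0.463, 0.199 and 0.1, and those of LT library 2 and flow library 3 at 0.133. With the number as a block 9 genes were called.

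Among genes that neutrophils make, the neutrophil-attracting chemokine Cxcl2 was at 7698, 57616 and 20517 CPM in LT and at 7337, 7685 and 1854 CPM with raised flow (-2.35 ± 0.77, adjusted p = 0.795), and Vegfa at 172, 1123 and 184 CPM against 83.7, 88.8 and 85.8 CPM (-2.52 ± 0.69). Both had all flow libraries below all LT libraries. Higd1a and Tpi1 overlapped through LT library 1, at 47.8 and 60.7 CPM. The alarmin S100a8 lay higher in every flow library, with 2 of 6 S100 genes higher without overlap (5.67% of genes, of 9.31% without overlap in either direction) and an adjusted p of 0.843. In T cells, 2 of 9 cell cycle genes were higher without overlap (4.16%, median 1.22), and the death ligand Faslg was at 67.6, 162 and 47.7 CPM against 32.1, 40.3 and 32.1 CPM (-1.20 ± 0.47, adjusted p = 0.999).

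The title of the series names selenoamino acid metabolism of tuft cells, rare chemosensory cells of the duct lining, and no difference in selenoproteins was detectable in them at this depth. Tuft cells numbered 285, 44 and 361 in LT and 147, 180 and 160 with raised flow. None of 4853 genes was called by edgeR (0.0%, 64 at an unadjusted p below 0.05, 0 by DESeq2, 15 without LT library 1). Of 14 selenoprotein and selenocysteine genes tested, none was outside the range of the other group and the median was -0.06, against 0.02 for all genes. Gpx2, a glutathione peroxidase of epithelia, was at 2138, 5098 and 5176 CPM in LT and at 1380, 2413 and 2909 CPM with raised flow (-0.89 ± 0.37). Gpx4, which protects membranes from lipid peroxides, was at 478, 449 and 621 CPM against 502, 583 and 511 CPM (0.04 ± 0.25).

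Over all cells, 2 of 20 such genes rose, the secreted Gpx3 and Selenom (1.62), and Gpx2 fell, from 4044, 7299.7 and 6092 CPM to 1128, 1447 and 2632 CPM (-1.74 ± 0.38, adjusted p = 0.0416), where 3.48% of all genes rose and 4.25% fell. In tuft cells the genes with the smallest p-values were again metabolic. Ldha was at 851, 1227 and 1846 CPM in LT and at 638, 444 and 376 CPM with raised flow (-1.42 ± 0.32, adjusted p = 1), and Tpi1 at 44.2, 59.9 and 93.8 CPM against 21.9, 14.2 and 8.74 CPM. Eno1 (-1.10), Pgam1 (-1.35) and transferrin (Tf, -1.16) were lower, and Hmgcs1 (1.04), Rybp (1.16), Dusp10 (1.39), Ubqln4 (1.32) and Serpinh1 (1.78) were higher, the last with overlap. Free RNA was estimated at 14.5% to 21.6% of tuft cell UMIs in LT and at 7.31% to 14.5% with raised flow.

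On day 7 no gene was called. In a fit over all cells with the 6 libraries of day 7, 1107 of 15488 genes (7.15%) were called on day 1 and none on day 7 by edgeR (0.0%, 325 at an unadjusted p below 0.05). The difference of the effects was called for no gene (0.0%, 2788 at an unadjusted p below 0.05), for 1221 by DESeq2, for 599 without LT library 1, for 144 without library 3 of the day 7 LT group and for 4 without flow library 1. Col3a1 was at 2909, 2654 and 769 CPM in LT on day 7 and at 2169, 2543 and 1071 CPM with raised flow, and its effect was 4.49 log2 units smaller than on day 1 (SE 0.81, adjusted p = 0.119). Spon1 (-4.49 ± 0.83) and Col6a1 (-3.92 ± 0.73) had a difference of similar size, and those of Fyn (-1.63) and Tacc1 (-1.56) had the same direction and were smaller. The epithelial genes Mall (1.99), Lypd3 (2.45) and Grb7 (2.75), with Rasa4 (2.26) and the histone Hist1h2bq (2.14), went the other way. Lypd3 was at 59.8, 48.4 and 63.7 CPM in LT on day 1 against 15.7, 7.6 and 10.1 CPM with raised flow, and at 7.71, 7.13 and 11.5 CPM against 7.22, 12.2 and 8.64 CPM on day 7. For all of these genes the 2 groups overlapped on day 7.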

How the data were processed

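The 6 libraries of day 1 were analysed from deposited gene-by-barcode matrices of UMI counts, which the authors made with Cell Ranger (version 5.0.1 per the labels, with Seurat 3.2.0) and did not normalize. The genome build is not given in the sources used here, so no coordinates or sequences are given. Cells were selected as stated above and clustered with leidenalg 0.10.2 (Leiden, resolution 0.9). Cells with the top simulated-doublet scores (2633) were marked but kept, and removed in an alternative. Free RNA was estimated from barcodes with at most 100 UMIs. Counts were summed per library, with 26268032 to 55899503 UMIs in LT and 58948428 to 84984714 with raised flow, and tested with the quasi-likelihood test of edgeR 4.0.16 (TMM scaling, filterByExpr, robust fit) with Benjamini-Hochberg adjustment; DESeq2 1.42.0 was an alternative. On simulated counts for all cells, 84% of 4-fold and 10% of 2-fold changes were recovered. Shares of cells were compared by two-sided exact permutation tests. Intervals are SEs of the fit and cover the spread between libraries.

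Same-numbered libraries, with numbers taken from file names only, had correlated deviations over all cells (r = 0.419, 0.171 and 0.271, and up to 0.157 for other pairs). Fits with the library number as a block are therefore given where they change a call. The members and gene lists were chosen with earlier results of these data known. Named genes were, among called genes of at least 20 CPM on average, the 10 with the largest change in each direction over all cells and 5 in each cell type and for the day 7 comparison (where none was called, the 5 with the smallest p), with the called members of each list and, of other members, some of those with the highest level. Other genes, such as Klf2, Angpt2 and Cdk1, were chosen after their values were seen. Features without a symbol were counted and not named, and some genes that the rule picks are not reported here.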

Additional observations from a re-analysis of the deposited data

How the results depend on the processing

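Named genes gave 256 log2 fold changes over all cells and in single classes, which took 4069 values under the alternatives. Of these values 28 had the opposite sign, and they belonged to 16 of the log2 fold changes. Leaving out 1 library moved the count over all cells between 0 and 2606, in BEC between 0 and 556, EC 0 and 350, fibroblasts 0 and 38, macrophages 0 and 8, monocytes 0 and 253, neutrophils 0 and 146, T cells 0 and 4, tuft cells 0 and 15, VSMC 0 and 354, cluster 1 2 and 36, cluster 18 0 and 74, cluster 2 0 and 810, and for day 7 against day 1 0 and 599. The differences in share, in percentage points, ranged from 19.47 to 28.3 for fibroblasts, -14.58 to -7.266 for BEC, -16.75 to -8.08 for cluster 2, -22.85 to -6.337 for neutrophils, -4.866 to -0.7135 for tuft cells, -1.843 to -0.5092 for VSMC, 0.04904 to 1.892 for EC, 0.6807 to 0.9532 for lymphatic EC, 0.9717 to 2.005 for T cells, 1.266 to 1.957 for B cells, 0.2994 to 0.5124 for mast cells, 0.06899 to 0.6982 for NK cells, 0.02879 to 0.509 for Schwann cells, -0.1825 to 3.007 for dendritic cells, -0.91 to 6.416 for macrophages, -0.4509 to 5.178 for monocytes and -0.2167 to 0.3723 for goblet cells.

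With DESeq2 the counts were 2619 over all cells, 260 in BEC, 26 in EC, 57 in fibroblasts, 17 in macrophages, 65 in monocytes, 17 in neutrophils, 4 in T cells, 128 in VSMC, 10, 38 and 162 in clusters 1, 18 and 2, and 1221 for day 7 against day 1. With the replicate block they were 0 over all cells, 1 in BEC, 18 in fibroblasts, 1 in macrophages, 8 in monocytes, 0 in neutrophils, 9 in T cells, 17 in VSMC and 10, 6 and 1 in clusters 1, 18 and 2. In every population at least 1 same-numbered pair had a correlation of 0.1 (T cells) or less, unlike over all cells. EC and tuft cells had 0 called genes with and without the block. Clusters 1, 2 and 18, BEC of clusters 6 and 9 and fibroblasts of cluster 5 were tested after seeing the data. Without a filter on low counts they were 4 in BEC, 14 in EC, 4 in macrophages, 214 in monocytes, 104 in neutrophils, 15 in T cells, 13 in tuft cells, 183 in VSMC and 43, 62 and 4 in clusters 1, 18 and 2. Equal cell type shares gave 0 over all cells, library size alone 4 in monocytes, removal of doublets 0 in neutrophils and 5 in VSMC, subtraction of free RNA 0 in neutrophils, 0 in T cells and 1 in cluster 1, cells from 1000 genes 0 in T cells and cluster 1, a mitochondrial limit of 10% 3 in tuft cells, and resolution 2 7 in tuft cells. With cells from 1000 genes the share differences were 33.62 points for fibroblasts, -21.06 for BEC, -19.1 for cluster 2, -2.598 for VSMC, -0.235 for neutrophils, 0.4568 for B cells and 0.2422 for mast cells, and with resolution 2 -22.46 for BEC and -1.257 for goblet cells. Neutrophils could not be fitted with cells from 1000 genes. The causes were not tested, beyond the smaller number of cells, genes or libraries that an alternative leaves.

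With equal cell type shares, the log2 fold changes over all cells that turned direction were those of Lox (-0.2321), Marveld2 (0.1838), Cdh1 (0.1383), Wfdc2 (0.3389), Cftr (0.2357), Snai1 (-0.3566), Tgfbr3 (-0.3402), Angpt1 (-0.07108), Crem (-0.06072) and Reg3g (0.003131). Of these, Crem and Reg3g were not called as reported, nor were the genes that follow in their cell types. Over all cells, Crem turned without ctrl1D replicate 3 (-0.1999) and without treat1D replicate 2 (-0.02188), with values up to 0.2498 without another library. In BEC, Crem turned with doublets removed (-0.007576), at resolution 2 (-0.1242) and without ctrl1D replicate 3 (-0.03638, range up to 0.2651). Reg3g turned in BEC of clusters 6 and 9 (-0.281), at resolution 2 (-0.1513), without ctrl1D replicate 1 (-0.0329) and without treat1D replicate 3 (-0.1647, range up to 0.2747), and Krt7 in clusters 6 and 9 (0.2523). Gpx4 in tuft cells turned with cells from 1000 genes (-0.1336), a mitochondrial limit of 10% (-0.09303), without ctrl1D replicate 1 (-0.006889), without ctrl1D replicate 2 (-0.05855) and without treat1D replicate 2 (-0.03797, range -0.05855 to 0.192 without 1 library). Vim in fibroblasts turned without ctrl1D replicate 3 (-0.05315) and without treat1D replicate 1 (-0.07254, range up to 0.4901), and Isg15 in macrophages without ctrl1D replicate 1 (0.1578, range from -2.474).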
